A study of Mus musculus with 3 samples.

Results

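Of the 24421 gene symbols measured, 7 are described here: Penk, Cldn1, Fbxo10, Plekhg1, Nanos1, Hspa12a and Nt5e. They were chosen from the deposited values themselves. Each had an RPKM (reads per kilobase of gene model, scaled to library size) of at least 5 in the IRF8-deficient library and under 0.5 in both of the other libraries. In all 11 symbols met these thresholds, or 0.103% of the 10658 genes that reached an RPKM of 1 in any library, and all 7 were among them. What chose the genes is given below as a description and supports nothing.

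RNA was sequenced from granulocyte progenitors, a bone marrow stage on the way to neutrophils and other granulocytes, purified from female mice. The IRF8-deficient library came from C57BL/6 (H-2b) mice deficient in IRF8, a transcription factor known for driving the monocyte and dendritic lineages and for holding back the neutrophil lineage. The 4T1-TB library came from F1 mice with the H-2b/d haplotypes that bore orthotopic 4T1 mammary tumors, and the NTB library from non-tumor-bearing F1 mice of the same haplotypes. There was 1 library per group, so no difference was tested and no p-value is given. Strain and genotype change together wherever the IRF8-deficient library is compared and cannot be told apart. The sources used here do not give ages, the number of mice behind each library or the sorting gates.

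The 7 genes act in unrelated processes. Penk encodes proenkephalin, the precursor that is cut into enkephalin opioid peptides. Nt5e encodes CD73, a surface enzyme that turns AMP outside the cell into adenosine, a product known for damping lymphocyte responses. Cldn1 encodes claudin-1, a membrane strand protein of epithelial tight junctions. Plekhg1 encodes an exchange factor that activates small GTPases of the cytoskeleton. Nanos1 encodes an RNA-binding protein that works with Pumilio proteins to repress translation. Fbxo10 encodes a substrate receptor of SCF ubiquitin ligases, for which BCL2, an inhibitor of apoptosis, is a described substrate. Hspa12a encodes a distant member of the HSP70 chaperone family.

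The reads behind the deposited values, recovered as whole numbers, summed to 36591133 for IRF8-deficient, 23950985 for 4T1-TB and 43345353 for NTB. The library size behind the deposited RPKM, as a multiple of that sum, was 0.714 in IRF8-deficient, 0.927 in 4T1-TB and 1.03 in NTB. Irf8 itself had an RPKM of 13.7 in IRF8-deficient, 8.60 in 4T1-TB and 43.8 in NTB, so transcript of the targeted gene was present in the deficient library, and a single value for a gene leaves its exons unresolved. Rn45s, the ribosomal RNA precursor, took 13.5% of the reads in IRF8-deficient, 6.17% in 4T1-TB and 1.75% in NTB, and its part in the results was not tested. All intervals below are 95% intervals for counting error only, and do not cover variation between animals.

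Penk was the highest of the 7 in the deficient library. Its RPKM was 18.9 in IRF8-deficient (696 reads, interval 17.5 to 20.3), 0.0638 in 4T1-TB (2 reads) and 0.253 in NTB (16 reads). It stood 74.6-fold above NTB (interval 45.6 to 131) and 296-fold above 4T1-TB, a ratio that rests on 2 reads and has an interval of 81.6 to 2449. The gene lies on the minus strand of chromosome 4 of mm10, from 4133531 to 4138819 (ENSMUSG00000045573.9).

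Nt5e was the lowest of the 7 in the deficient library and lay closest to the threshold that chose them. Its RPKM was 5.08 in IRF8-deficient (475 reads, interval 4.63 to 5.56), 0.176 in 4T1-TB (14 reads) and 0.225 in NTB (36 reads). The interval in IRF8-deficient includes 5, so counting error alone could place it on either side of that threshold. The ratios were 28.9-fold over 4T1-TB (interval 17.0 to 53.2) and 22.6-fold over NTB (16.1 to 32.7). Nt5e lies on the plus strand of chromosome 9, from 88327197 to 88372092 (ENSMUSG00000032420.8).

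Cldn1 had an RPKM of 14.7 in IRF8-deficient (1244 reads, interval 13.9 to 15.5), 0.236 in 4T1-TB (17 reads) and 0.351 in NTB (51 reads). It was 62.2-fold above 4T1-TB (interval 38.7 to 107) and 41.8-fold above NTB (31.6 to 56.5). The gene is on the minus strand of chromosome 16, from 26356642 to 26371841 (ENSMUSG00000022512.3).

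Fbxo10 reached almost the same level as Cldn1. Its RPKM was 14.2 in IRF8-deficient (1715 reads, interval 13.5 to 14.9), 0.262 in 4T1-TB (27 reads) and 0.414 in NTB (86 reads). The NTB value is the highest of the low values among the 7, and its interval of 0.331 to 0.512 includes the threshold of 0.5. Fbxo10 was 54.0-fold above 4T1-TB (interval 37.0 to 82.2) and 34.2-fold above NTB (27.5 to 43.0). It is on the minus strand of chromosome 4, from 45034247 to 45084604 (ENSMUSG00000048232.12), 40.9 megabases from Penk.

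Plekhg1 and Nanos1 had the smallest ratios. Plekhg1 had an RPKM of 6.47 in IRF8-deficient (1253 reads, interval 6.12 to 6.84), 0.340 in 4T1-TB (56 reads) and 0.361 in NTB (120 reads), which made it 19.0-fold higher than 4T1-TB (interval 14.6 to 25.3) and 17.9-fold higher than NTB (14.8 to 21.8). Nanos1 had 5.73 in IRF8-deficient (588 reads, interval 5.28 to 6.22), 0.321 in 4T1-TB (28 reads) and 0.364 in NTB (64 reads), or 17.9-fold over 4T1-TB (12.2 to 27.1) and 15.8-fold over NTB (12.2 to 20.7). In both genes the low libraries still held 28 to 120 reads, so these transcripts were present there at a low level and not absent. Plekhg1 spans 227 kilobases of the plus strand of chromosome 10, from 3740364 to 3967303 (ENSMUSG00000040624.17), and Nanos1 is a gene of 1 exon on the plus strand of chromosome 19, from 60755987 to 60759914 (ENSMUSG00000072437.4).

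Hspa12a came nearest to absence outside the deficient library. Its RPKM was 5.13 in IRF8-deficient (768 reads, interval 4.77 to 5.51), 0.00785 in 4T1-TB from 1 read, and 0.0389 in NTB from 10 reads. The ratio to NTB was 132-fold (interval 71.2 to 276), and the ratio to 4T1-TB was 653-fold with an interval of 117 to 25832. It lies on the minus strand of chromosome 19, from 58795750 to 58943654 (ENSMUSG00000025092.7), 1.81 megabases from Nanos1.

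**Figure D1:**
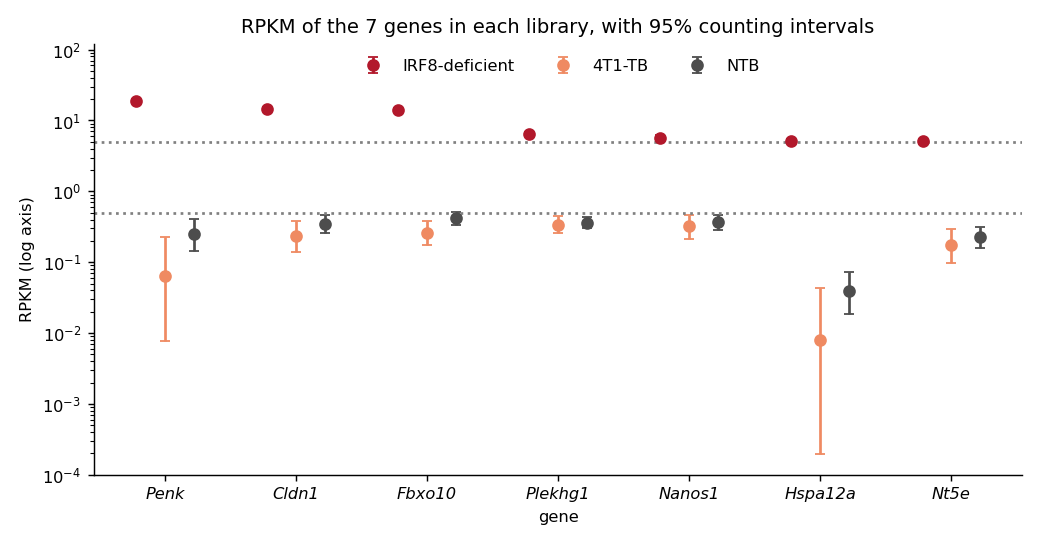
RPKM of each gene in each library on a log axis, with 95% counting intervals as bars (1 library per group, no replicates) and dotted lines at the thresholds of 5 and 0.5. IRF8-deficient values run from 5.08 to 18.9, while all 4T1-TB and NTB values lie at or below 0.414.

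Per length of gene model, the levels in IRF8-deficient fell in the order Penk, Cldn1, Fbxo10, Plekhg1, Nanos1, Hspa12a and Nt5e. The step from Penk to Cldn1 was 1.28-fold (interval 1.17 to 1.41) and that from Fbxo10 to Plekhg1 2.19-fold (2.03 to 2.36). Cldn1 and Fbxo10 did not differ beyond counting error (ratio 1.04, interval 0.963 to 1.12), nor did Hspa12a and Nt5e (1.01, 0.899 to 1.13). Plekhg1 over Nanos1 (1.13, interval 1.023 to 1.247) and Nanos1 over Hspa12a (1.12, 1.002 to 1.246) lay at the edge. None of the 7 was among the abundant transcripts of the deficient library. Penk stood above 62.9% of the 10658 genes there, Cldn1 above 55.2% and Nt5e above 26.6%. In NTB the 7 stood above at most 1.6% of them, the place of Fbxo10.

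**Figure D2:**
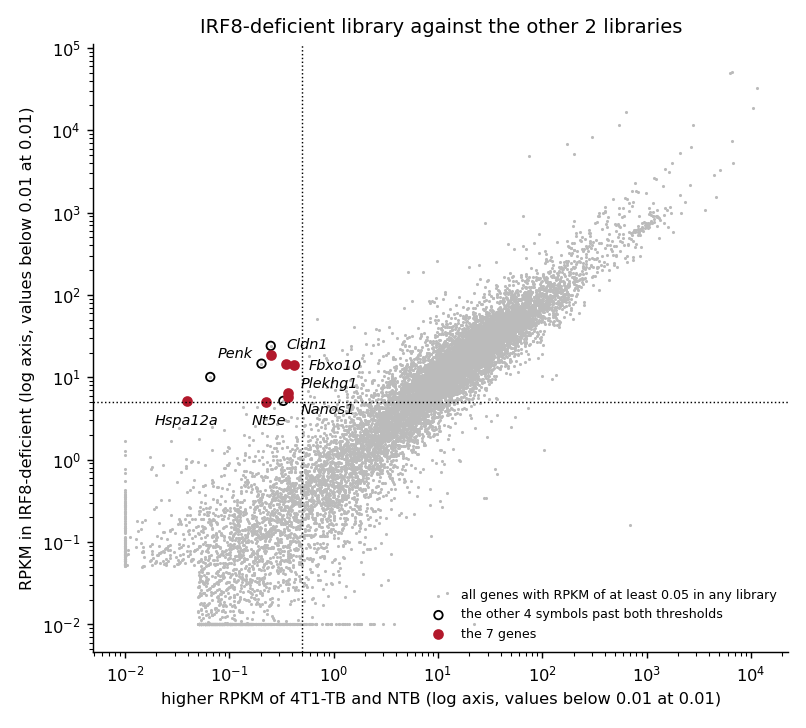
Each point is 1 gene with an RPKM of at least 0.05 in any library, with the higher of its 4T1-TB and NTB values on the horizontal log axis and its IRF8-deficient value on the vertical log axis. The 7 genes (red) and the other 4 symbols past both dotted thresholds (open circles) lie in the upper left, away from the diagonal that holds most genes.

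On log2(RPKM + 1), with genes called where the difference reached 1 in either direction, all 7 genes were higher in IRF8-deficient than in NTB, beside 8.78% of genes called higher in that comparison, and all 7 were higher than in 4T1-TB, beside 8.83%. The choice of the genes fixes both counts. The differences from NTB ran from 2.30 for Nanos1 to 3.99 for Penk, and those from 4T1-TB from 2.35 for Nanos1 to 4.22 for Penk. Penk held rank 31 of the differences from NTB and rank 15 of those from 4T1-TB, so on this scale the 7 are not the genes with the largest differences. Plain ratios were not ranked. The pseudocount of 1 shrinks the difference of genes near 0 in the low library, most of all for Hspa12a, whose difference from NTB was 2.56 on this scale and 7.04 as a plain log2 ratio. The comparisons with NTB and with 4T1-TB share the IRF8-deficient library.

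Between the low libraries, 4T1-TB and NTB, the thresholds set no direction. All 7 values were lower in 4T1-TB than in NTB. Among the 92 genes under 0.5 in both of those libraries and at least 1 in IRF8-deficient, 60.9% were lower in 4T1-TB. For Fbxo10 the 4T1-TB level was 0.633 times the NTB level (interval 0.395 to 0.986), and for the other 6 the counting interval included 1, from 0.941 for Plekhg1 (0.673 to 1.30) down to 0.202 for Hspa12a (0.00465 to 1.42). For Penk the ratio was 0.252 (0.0281 to 1.07). On the log2(RPKM + 1) scale none of the 7 was called in this comparison, in which 1.67% of genes were called higher and 1.35% lower. These intervals compare 2 libraries and hold no spread between animals.

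**Figure D3:**
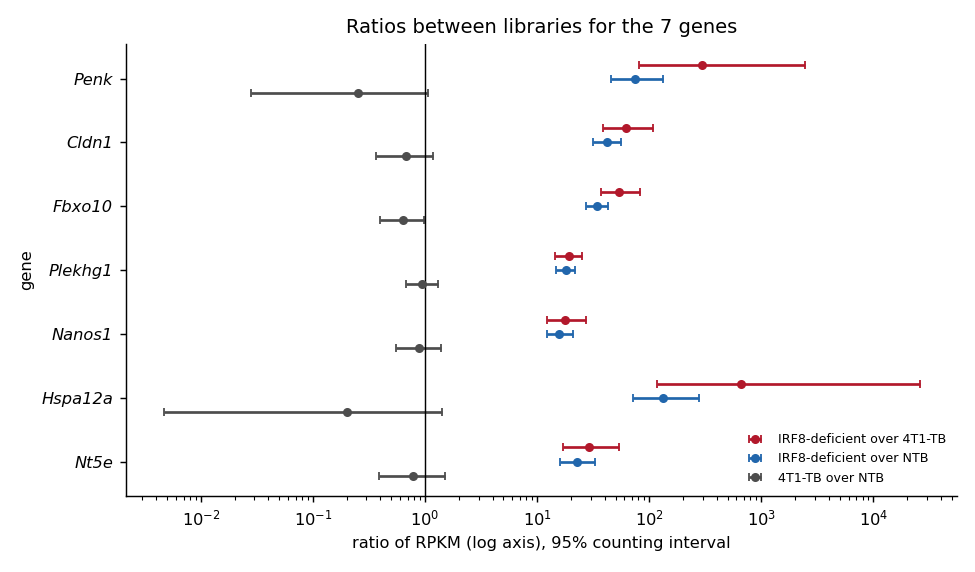
Ratios of RPKM between libraries for each gene on a log axis, with exact 95% counting intervals. The ratios of IRF8-deficient to 4T1-TB and to NTB lie between 15.8 and 653, while those of 4T1-TB to NTB lie between 0.202 and 0.941.

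The 4 other symbols with the same pattern were Ear2, 9830166K06Rik, 1700047M11Rik and Il18r1. Ear2, a ribonuclease of the eosinophil-associated family, had an RPKM of 24.1 in IRF8-deficient, 0.189 in 4T1-TB and 0.249 in NTB. Ear2 belongs to a family of near-identical copies, so its count is uncertain. 9830166K06Rik had 14.7 in IRF8-deficient, 0.164 in 4T1-TB and 0.203 in NTB, and 1700047M11Rik had 10.1 in IRF8-deficient, 0.0656 in 4T1-TB and 0 in NTB. Il18r1, which encodes a chain of the interleukin-18 receptor, had 5.18 in IRF8-deficient, 0.330 in 4T1-TB and 0.173 in NTB. The same thresholds with 4T1-TB as the high library found 4 symbols, BC100530, Socs3, Steap4 and Stfa2, named after their values were seen. With NTB as the high library they found 0.

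Just outside the upper threshold lay BC049730 at 4.77 in IRF8-deficient, Dennd2a at 4.38 and Amer2 at 4.37, next to Nt5e, Hspa12a and Il18r1 just inside. Just outside the lower threshold lay Dmc1, with a higher low value of 0.573, Tinagl1 with 0.575 and Rab37 with 0.597, next to Fbxo10 at 0.414, Nanos1 at 0.364 and Plekhg1 at 0.361 just inside. Tinagl1 had 18.1 in IRF8-deficient, close to Penk, so the list ends inside a continuous range of values.

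The genes flanking the 7 were not high in the deficient library alone. Of 16 protein-coding genes that flank or overlap them, 8 were under 0.5 in every library and 8 could be compared. None of these 8 was called higher in IRF8-deficient, against NTB (8.78% of all genes) or 4T1-TB (8.83%). For 8 genes that count is near those shares. In both comparisons 1 was called lower (5.73% of genes were called lower against NTB and 7.07% against 4T1-TB). That gene was Mthfd1l, a mitochondrial folate enzyme gene that starts 5.82 kilobases from Plekhg1, with an RPKM of 12.2 in IRF8-deficient, 32.3 in 4T1-TB and 29.5 in NTB. With scaling by summed reads 3 of the 8 were called lower against NTB (Mthfd1l, Polr1e and Tomm5) and 4 against 4T1-TB (these and Eif3a). Eif3a, a translation initiation factor gene 1.203 kilobases from Nanos1, had 101 in IRF8-deficient, 160 in 4T1-TB and 129 in NTB. Snx14, a sorting nexin gene 4.66 kilobases from Nt5e, had 10.1 in IRF8-deficient, 8.03 in 4T1-TB and 9.96 in NTB. Polr1e, an RNA polymerase I subunit gene that overlaps Fbxo10 on the opposite strand, had 2.58 in IRF8-deficient, 5.44 in 4T1-TB and 4.42 in NTB. The sources used here do not give the strandedness of the counting, so reads from overlapping genes on opposite strands cannot be told apart. The claudin gene Cldn16, next to Cldn1, was listed at 0 in all 3 libraries.

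Next to the other symbols with the same pattern, 2 flanking genes chosen after their values were seen were called higher in both comparisons. Over all genes 8.78% were called higher against NTB and 8.83% against 4T1-TB. The other flanking gene that could be compared, Fbxo28 next to 1700047M11Rik, was not called, at 10.1 in IRF8-deficient, 4.55 in 4T1-TB and 5.08 in NTB. Flanking genes were not read for 9830166K06Rik. Degs1, a sphingolipid desaturase gene 5.19 kilobases from 1700047M11Rik, had an RPKM of 108 in IRF8-deficient, 4.60 in 4T1-TB and 11.6 in NTB. Il18rap, which encodes the partner chain of the interleukin-18 receptor and lies 14.5 kilobases from Il18r1, had 37.3 in IRF8-deficient, 15.6 in 4T1-TB and 10.2 in NTB.

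**Figure D4:**
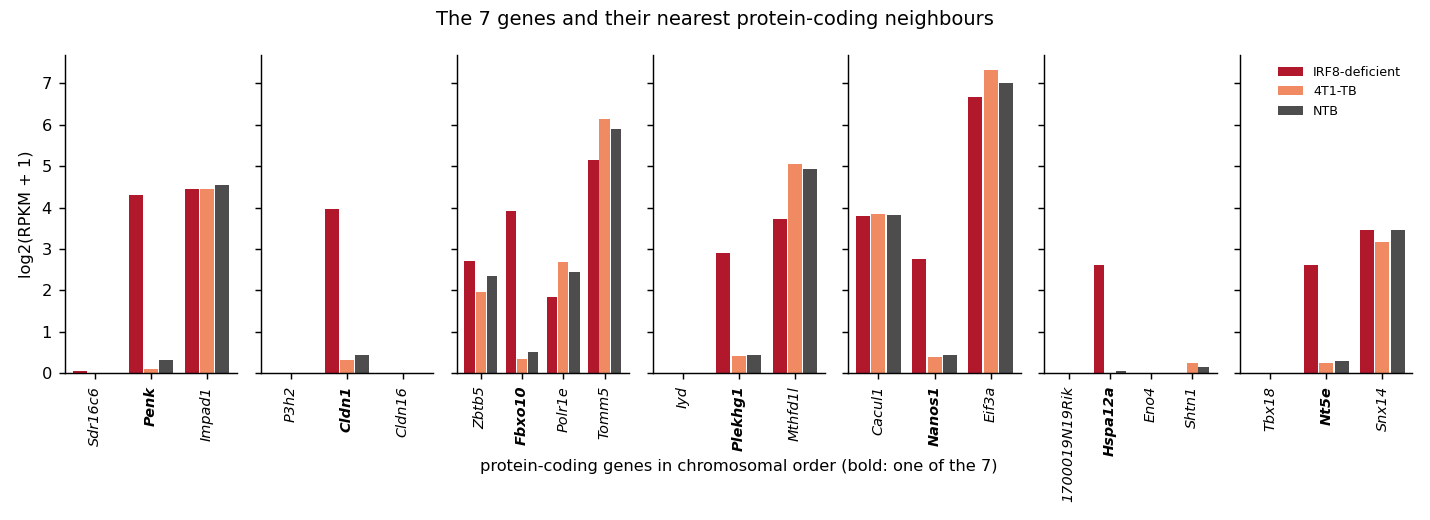
Bars give log2(RPKM + 1) in the 3 libraries for each of the 7 genes (bold) and for the protein-coding genes that flank or overlap it, in chromosomal order. The bold genes stand high in IRF8-deficient alone, while their expressed neighbours have bars in all 3 libraries.

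Upstream sequence was available from RefSeq (GRCm38.p6, the mm10 assembly) for 6 of the 7, as 8 windows of the 250 bases before an annotated start. Penk had no entry. The windows of 3 genes are shown as examples that differ in CpG content. They include the lowest of the 8 (Plekhg1) but not the highest (32 CpG, in another Fbxo10 window). The windows run 5′ to 3′ on each gene's own strand, with GC boxes (GGGCGG on either strand) and the E-box CACGTG in capitals. They lie at chr16:26371840-26372089 (minus strand) for Cldn1, chr4:45084605-45084854 (minus) for Fbxo10 and chr10:3872417-3872666 (plus) for Plekhg1, the last being an internal start of that gene.
Cldn1: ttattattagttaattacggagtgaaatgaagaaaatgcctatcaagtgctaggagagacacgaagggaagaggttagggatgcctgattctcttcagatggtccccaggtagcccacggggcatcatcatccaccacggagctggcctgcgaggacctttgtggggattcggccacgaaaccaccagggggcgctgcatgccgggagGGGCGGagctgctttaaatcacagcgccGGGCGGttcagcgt
Fbxo10: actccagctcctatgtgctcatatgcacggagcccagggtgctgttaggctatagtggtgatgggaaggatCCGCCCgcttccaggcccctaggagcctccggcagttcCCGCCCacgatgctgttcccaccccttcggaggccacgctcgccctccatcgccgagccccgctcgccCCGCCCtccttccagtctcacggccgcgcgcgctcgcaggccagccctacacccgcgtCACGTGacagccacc
Plekhg1: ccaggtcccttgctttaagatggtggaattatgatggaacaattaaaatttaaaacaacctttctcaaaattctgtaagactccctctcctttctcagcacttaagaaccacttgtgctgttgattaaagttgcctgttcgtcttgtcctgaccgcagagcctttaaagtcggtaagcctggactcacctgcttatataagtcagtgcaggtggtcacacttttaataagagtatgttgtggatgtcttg

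A GC box was present before at least 1 start of 5 of the 6 genes, Cldn1, Fbxo10, Hspa12a, Nanos1 and Nt5e. For Hspa12a this was an internal start (window chr19:58860985-58861234). The Hspa12a window before the outer start of the gene (chr19:58943673-58943922) held none. Over all 32851 windows 32.7% held a GC box. The count is by gene and this share by window, so they are unlike measures, and no share by gene was computed. Counting overlapping matches, the Cldn1 window held 2 and the Fbxo10 window shown 3. The CpG count was 14 in the Cldn1 window and 23 in that of Fbxo10, against a median of 6 over all windows, and 3 in the Plekhg1 window. The E-box was found in Fbxo10 alone (6.02% of windows). None of the 8 windows held the interferon-response-like motif of GAAA, 2 bases of any kind and GAAA (2.98% of windows), the ETS-IRF composite motif of GGAA, 2 bases of any kind and GAAA (2.30%), the AP-1 motif TGANTCA (6.75%), the cAMP response element TGACGTCA (1.55%), the C/EBP motif TTGCGNAA (0.67%) or TATAAA (12.4%), each searched on both strands, and the first 2 of these motifs can overlap. CCAAT was found in Nanos1 alone (33.8% of windows). These are letters in short windows and describe no binding.

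The genes that the 7 work with or are related to were read from lists. Among opioid genes, Penk was the one opioid precursor with more than trace reads. Prodynorphin (Pdyn) and prepronociceptin (Pnoc) were listed at 0 in all 3 libraries, as were the processing enzymes Pcsk1, Pcsk2 and Cpe, which cut such precursors into peptides, and the receptor genes Oprm1 and Oprd1. Of the 14 genes on that list 8 were at 0 throughout. Pomc had an RPKM of 0.0578 in IRF8-deficient, 0.0340 in 4T1-TB and 0.303 in NTB. Ogfr, the opioid growth factor receptor, had 30.3 in IRF8-deficient, 29.8 in 4T1-TB and 25.5 in NTB.

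For CD73, the enzymes on either side of its reaction were measured in all libraries. Entpd1 (CD39), which makes AMP from extracellular ATP, had an RPKM of 8.68 in IRF8-deficient, 5.66 in 4T1-TB and 5.30 in NTB. Ada, which breaks adenosine down, had 27.8 in IRF8-deficient, 27.3 in 4T1-TB and 12.1 in NTB. The adenosine receptor genes Adora2a and Adora2b were low, at 0.176 and 0.145 in IRF8-deficient, 0.173 and 0.220 in 4T1-TB, and 0.240 and 0.0484 in NTB. Of the 9 other genes of the list that could be compared, 1 (Ada) was called higher and 1 (Dpp4) lower against NTB, with a median difference of −0.37 beside −0.02 over all genes. Against 4T1-TB none was called higher and 1 (Entpd3) lower, with a median of −0.68 beside −0.000139 over all genes. These counts are near the shares over all genes, 8.78% higher and 5.73% lower against NTB, and 8.83% and 7.07% against 4T1-TB. With libraries scaled by summed reads the Ada call was lost, and 4 of 10 genes were called lower against NTB and 5 of 10 against 4T1-TB.

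Among the claudin genes on the list, Cldn1 was 1 of 3 that reached an RPKM of 1. Cldn15 had 64.6 in IRF8-deficient, 54.5 in 4T1-TB and 51.1 in NTB, and Cldn12 had 1.64 in IRF8-deficient, 3.83 in 4T1-TB and 2.48 in NTB. Occludin (Ocln) was listed at 0 in all libraries. Tjp3, a scaffold protein of tight junctions, was called higher against NTB but not against 4T1-TB, at 9.05 in IRF8-deficient, 4.51 in 4T1-TB and 2.95 in NTB, and its call was lost with scaling by summed reads. Of 29 genes of the list in the files 16 were at 0 in all 3 libraries.

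Nanos2 and Nanos3 were listed at 0 throughout, while the partners that Nanos proteins act with were expressed in every library. Pum2 had 54.3 in IRF8-deficient, 43.9 in 4T1-TB and 46.9 in NTB. None of the 12 Pumilio and CCR4-NOT deadenylase genes compared was called in either comparison, and their median difference was 0.01 against NTB and 0.04 against 4T1-TB. Over all genes 8.78% were called higher and 5.73% lower against NTB, and 8.83% and 7.07% against 4T1-TB. For 12 genes a count of none is not far from those shares.

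Other HSP70 genes were lower in the deficient library or not called. Of 13 other members compared, none was called higher, 7 were called lower in IRF8-deficient against NTB (5.73% of all genes) and 8 against 4T1-TB (7.07%), with median differences of −1.08 and −1.55. The stress-inducible Hspa1a had an RPKM of 9.68 in IRF8-deficient, 35.0 in 4T1-TB and 123 in NTB, and its near-identical copy Hspa1b 10.7 in IRF8-deficient, 37.4 in 4T1-TB and 137 in NTB, so the split between these copies is uncertain. The mitochondrial chaperone gene Hspa9 had 42.8 in IRF8-deficient, 138 in 4T1-TB and 113 in NTB. The cochaperone gene Hsph1 had 4.71 in IRF8-deficient, 22.01 in 4T1-TB and 16.7 in NTB. Hspa12b, the paralog of Hspa12a, was listed at 0 in every library. With median ratio scaling the lower calls stayed at 7 and 8, and with scaling by summed reads they numbered 11 and 9.

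Other PLEKHG genes differed less than Plekhg1. Plekhg2 was called higher in both comparisons, at an RPKM of 3.46 in IRF8-deficient, 0.990 in 4T1-TB and 1.04 in NTB, and Plekhg3 had 22.04 in IRF8-deficient, 13.8 in 4T1-TB and 10.8 in NTB. Of 15 other genes compared, which include the GTPases these factors can act on, Plekhg2 was the 1 called, which is near the share of all genes called higher (8.78% against NTB and 8.83% against 4T1-TB), and the list had medians of 0.51 against NTB and 0.52 against 4T1-TB. With median ratio scaling 4 were called against NTB, and with scaling by summed reads none was called higher and the medians were −0.02 against NTB and 0.15 against 4T1-TB. Rac2, the Rac GTPase of blood cells, had 354 in IRF8-deficient, 201 in 4T1-TB and 178 in NTB.

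Among SCF ligase genes, Fbxo11, another substrate receptor, had an RPKM of 13.8 in IRF8-deficient, 9.99 in 4T1-TB and 12.9 in NTB. The scaffold gene Cul1 had 42.2 in IRF8-deficient, 43.7 in 4T1-TB and 44.7 in NTB. The 15 other genes of this list that could be compared had median differences of 0.05 against NTB and 0.09 against 4T1-TB. Bcl2 had 2.07 in IRF8-deficient, 1.65 in 4T1-TB and 6.49 in NTB, and was thus called lower against NTB and not against 4T1-TB.

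**Figure D5:**
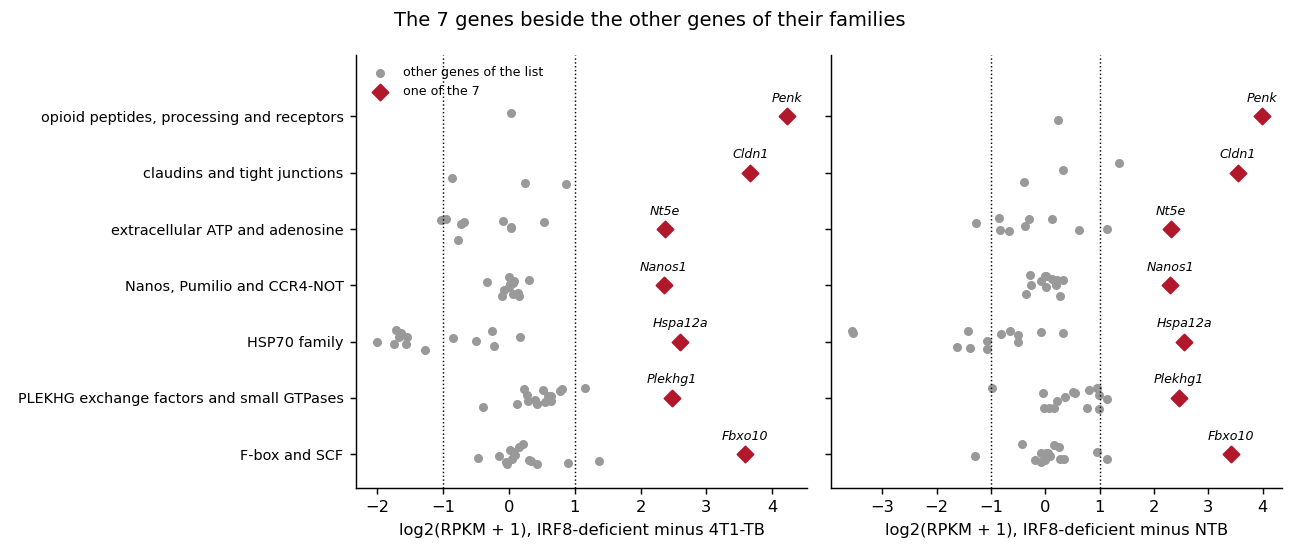
Differences on log2(RPKM + 1) of IRF8-deficient minus 4T1-TB (left) and minus NTB (right) for each gene with an RPKM of at least 1 in any library, by list, with dotted lines at the calls of −1 and 1. Each red diamond is 1 of the 7 genes and lies to the right of all grey points of its list, and most HSP70 points lie below 0.

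Markers of cell type were read in the same libraries. The 6 genes listed as markers of granulocyte progenitors summed to an RPKM of 9837 in IRF8-deficient, 19496 in 4T1-TB and 16488 in NTB. Mpo, the myeloperoxidase gene, had 4012 in IRF8-deficient, 6749 in 4T1-TB and 6811 in NTB. The protease genes Prtn3 and Ctsg were called lower against 4T1-TB. Cebpe, a transcription factor gene of later granulocyte maturation, was called higher in both comparisons, at 255 in IRF8-deficient, 108 in 4T1-TB and 77.4 in NTB. The 8 genes of later neutrophil stages summed to an RPKM of 33792 in IRF8-deficient, 1112 in 4T1-TB and 1273 in NTB. In IRF8-deficient most of that sum came from the granule protein genes Ngp (16528), Camp (11611) and Ltf. All 8 were called higher in IRF8-deficient against NTB and 7 against 4T1-TB (8.78% and 8.83% of all genes). Cxcr2, the 1 not called against 4T1-TB, had 39.5 in IRF8-deficient, 30.2 in 4T1-TB and 4.38 in NTB. The part of these 8 genes in the levels of the 7 was not tested. In bulk RNA, more cells of a type and more RNA per cell cannot be told apart. Ltf, the lactoferrin gene, had 4856 in IRF8-deficient, 65.0 in 4T1-TB and 75.2 in NTB. Retnlg, a resistin-like gene, had 392 in IRF8-deficient, 178 in 4T1-TB and 6.54 in NTB.

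Markers of other cell types were mostly low. The 8 T cell genes summed to an RPKM of 0.962 in IRF8-deficient, 0.474 in 4T1-TB and 0.456 in NTB, with Cd3e at 0 in all libraries. The 5 natural killer cell genes summed to 0.221 in IRF8-deficient, 0.274 in 4T1-TB and 0.268 in NTB. The 8 B cell genes summed to 12.1 in IRF8-deficient, 13.01 in 4T1-TB and 17.1 in NTB, nearly all of it Cd79b. Of the 13 stromal, endothelial and epithelial genes the sums were 6.89 in IRF8-deficient, 7.99 in 4T1-TB and 18.2 in NTB. Most of each sum was Pecam1, at 6.29 in IRF8-deficient, 5.77 in 4T1-TB and 12.0 in NTB. Krt18 had 0.219 in IRF8-deficient, 2.03 in 4T1-TB and 5.93 in NTB, and was called lower in both comparisons. Col3a1 was at 0 throughout and Epcam at 0 in IRF8-deficient, 0 in 4T1-TB and 0.0108 in NTB. Erythroid genes summed to 0.106 in IRF8-deficient, 0.144 in 4T1-TB and 1.36 in NTB, dendritic cell genes to 1.08 in IRF8-deficient, 1.01 in 4T1-TB and 1.51 in NTB, and eosinophil genes to 0.680 in IRF8-deficient, 0.635 in 4T1-TB and 3.87 in NTB. The 5 megakaryocyte genes summed to 3.54 in IRF8-deficient, 1.34 in 4T1-TB and 1.52 in NTB, and Gp1bb was called higher against 4T1-TB. Mast cell and basophil genes summed to 10.8 in IRF8-deficient, 22.9 in 4T1-TB and 18.6 in NTB. Larger sums were those of monocyte and macrophage genes, 70.5 in IRF8-deficient, 32.5 in 4T1-TB and 80.8 in NTB. Among them Adgre1 was called higher in both comparisons and Ccr2 against 4T1-TB, while Ly86 and Klf4 were called lower against NTB. Stem and early progenitor genes summed to 60.9 in IRF8-deficient, 50.6 in 4T1-TB and 99.0 in NTB. Of these Cd34 and Meis1 were called lower against NTB, and none was called higher. The part of these cell types in the levels of the 7 genes was not tested.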

How the data were processed

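RNA from sorted granulocyte progenitors was measured in 3 libraries, 1 per group, grouped by the mouse model in the labels. RPKM values for 24421 symbols were made and deposited by the authors. The submitters' processing notes list edgeR 3.12.1, HTSeq 0.6.1, Picard 1.97, TopHat2 2.0.13, cutadapt 1.2.1 and CASAVA 1.8.2, and the build mm10. The sources used here do not state each tool's role, the annotation, the strandedness or the form of the library size.

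RPKM was used as deposited. Between libraries, the RPKM of a gene had a ratio of whole numbers, from which whole reads and gene model lengths were recovered. Lengths were whole within 0.02 for 98.2% of symbols with at least 200 reads, and 92.3% of lengths were within 0.8 to 1.25 of the exon length in GENCODE M21 (mm10). Where several multiples of the reads were possible, the one nearest that exon length was taken, so the latter share is not an independent check. Single levels carry exact Poisson intervals and ratios exact Clopper-Pearson intervals. The recovery and the calls were also run on simulated Poisson reads, drawn with the recovered lengths and library sizes. Such reads hold no spread between animals and cannot check the choice of multiple.

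Differences were taken on log2(RPKM + 1), over 10658 genes that reached an RPKM of 1 in any library, and called at 1 or more in size. There was no test. The 7 genes, the gene lists and the marker lists were chosen with earlier results of these data known. The genes named were the 7, Irf8, the other symbols past the same thresholds, the 3 nearest each threshold, flanking genes, and from each list those called or most abundant, and a few of the others by their role after their values were seen. Some genes of these lists are not reported here. Alternatives were other pseudocounts, filters, thresholds and scalings. Software was matplotlib 3.10.9, pandas 2.3.3, scipy 1.17.1 and numpy 2.4.6 under Python 3.11.15.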

Additional observations from a re-analysis of the deposited data

How the results depend on the processing

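The number of symbols high in IRF8-deficient alone was 11, and moved with the thresholds: it was 29 at an RPKM of at least 2 in the high library, 6 at 10 or more, 5 with the other libraries under 0.25 and 23 with them under 1. At 10 or more Penk, Cldn1 and Fbxo10 were left of the 7, and under 0.25 Nt5e and Hspa12a. Median ratio scaling left it at 11. Scaling by summed recovered reads, chosen after the data were seen, gave 7 symbols, with Penk, Cldn1, Plekhg1 and Fbxo10 among them. Under that scaling the median of all genes was −0.50 against NTB and −0.33 against 4T1-TB, in place of −0.02 and −0.000139, and it gave 474 genes higher and 1933 lower against NTB in place of 936 and 611, and 512 and 1533 against 4T1-TB in place of 941 and 754. With a pseudocount of 5 the genes called higher numbered 526 against NTB (149 lower) and 475 against 4T1-TB (311 lower). With a pseudocount of 0.1 they numbered 1145 (1071 lower) and 1235 (1084 lower). All 7 genes were called higher in both comparisons with NTB and 4T1-TB under the pseudocount of 0.1 and both scalings, and 6 of 7 with a pseudocount of 5. No difference of the 7 changed sign under these 4 alternatives. The choice of the genes fixed this outcome and the calls of all 7, so neither is support. No paired analysis was possible because each group has 1 library, and no replicate could be left out for the same reason. Depth limits the low libraries most: in 4T1-TB, Penk rests on 2 reads and Hspa12a on 1.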
